A study of Mus musculus with 2 samples.

Results

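Cadherins and nonclustered protocadherins are cell surface adhesion proteins. The genes were taken by symbol from the GENCODE M21 protein-coding genes of mm10: Cdh or Pcdh followed by digits, Cdhr or Celsr followed by a digit, and Fat1 to Fat4. This gave 46 genes out of 21938 on chromosomes 1 to 19, X and Y. Open chromatin was measured at them by DNase-seq, in which DNase I cuts accessible DNA and the cut ends are sequenced, in hippocampus from B6CASTF1/J males at 14 days of age. The strain is the first-generation cross of C57BL/6J and CAST/EiJ, and its reads were aligned to mm10. The labels call the tissue a layer of the hippocampus and do not name the layer. There was 1 group with 2 biological replicates and no other condition. Each label speaks of 3 males, both replicates carry the same donor identifier, and no label says which animals went into which replicate, so the spread between replicates may be partly technical.

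Cadherins hold neighbouring cells together through extracellular repeats that bind calcium. Classical type I and type II cadherins are tied through catenins to the actin cytoskeleton, and in the brain they sort neurons and take part in synapse formation. The Celsr and Fat proteins are very large members that act in planar cell polarity and in growth control, and the delta protocadherins are expressed in overlapping sets of neurons during circuit formation.

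Promoters of all 5 delta-2 protocadherins, all 4 delta-1 protocadherins and all 3 Celsr genes held a peak in both replicates. The promoters of Cdh3, Cdh16, Cdh17, Cdh19, Cdh26, Cdhr2, Cdhr4, Cdhr5, Fat2 and Pcdh12 held none in either. A promoter was the 1000 bp on either side of any annotated start site, and its value was the authors' value of its highest peak, a signal deposited with no stated unit or normalization. Of the 46 members, 34 (73.9%) had a promoter peak in both replicates, against 64.3% of all protein-coding genes. A further 2 members had one in 1 replicate only, against 3.56% of all genes, and 10 had one in neither, against 32.1%. In the authors' shorter peak list 32 members had a promoter peak in both, against 59.3% of all genes. In bulk tissue, openness in fewer cells and less openness per cell cannot be told apart.

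Promoters of markers of the labelled tissue and of other cell types were examined. All 8 hippocampal and forebrain markers had a peak in both replicates, among them Prox1 (1.76 and 1.88), the transcription factor of dentate granule cells, and Zbtb20 (6.25 and 7.97). Other lists were open in both at 4 of 6 astrocyte, 3 of 6 oligodendrocyte lineage, 1 of 5 microglial, 1 of 5 endothelial, 0 of 3 choroid plexus, 2 of 5 cerebellar and hindbrain, and 1 of 2 liver markers. Of all genes, 95% were open where the promoter CpG ratio, defined below, was above 0.6, and 13.8% where it was below 0.4. The hippocampal and forebrain markers had a median ratio of 0.765 and the microglial ones 0.212. These counts therefore cannot by themselves identify the tissue. Of the endothelial markers, Kdr had 0.516 and 0.783, Pecam1 and Flt1 had a peak in 1 replicate, and Cldn5 and Tie1 had none. Of the choroid plexus markers, Ttr had a peak in 1 replicate, and Folr1 and Kcnj13 had none. The replicates held 115072 and 95711 peaks in the longer lists, which were used throughout. The values of each library came in whole steps of 0.00707 and 0.00815, and the highest promoter peaks of members ran from 46 to 705 steps in replicate 1 and from 40 to 781 in replicate 2.

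The delta-2 protocadherins Pcdh17, Pcdh10 and Pcdh8 had 3 of the 4 highest promoter values among the 46 genes, with the delta-1 gene Pcdh9 ranking between Pcdh10 and Pcdh8. The sequence of these 3 promoters is shown because the same short run of letters stands upstream of each. Each run below is the stretch covered by the highest promoter peaks of both replicates that lies upstream of the first start site and outside exons, read 5′ to 3′ on the strand of the gene from GRCm38.p6. Capitals mark bases in footprints shared by both replicates, a footprint being a short stretch protected from DNase I that the authors called at a false discovery rate of 0.01.
Pcdh17, chr14:84443405-84443562, plus strand: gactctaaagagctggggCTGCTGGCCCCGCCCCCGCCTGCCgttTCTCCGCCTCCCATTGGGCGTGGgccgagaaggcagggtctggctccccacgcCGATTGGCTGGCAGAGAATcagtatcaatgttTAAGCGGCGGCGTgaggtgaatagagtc
Pcdh10, chr3:45378321-45378397, plus strand: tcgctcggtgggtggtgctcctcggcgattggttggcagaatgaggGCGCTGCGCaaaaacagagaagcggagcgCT
Pcdh8, chr14:79771313-79771420, minus strand: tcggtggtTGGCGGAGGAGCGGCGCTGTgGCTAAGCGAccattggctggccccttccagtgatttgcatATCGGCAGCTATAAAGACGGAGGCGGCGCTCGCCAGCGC

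All 3 hold the letters ATTGGNTGGC in the orientation of the gene. The first base lies 58 bases before the start in Pcdh17, 50 in Pcdh10 and 68 in Pcdh8. In Pcdh17 the letters lie inside a shared footprint, and in Pcdh10 and Pcdh8 they are in lower case, outside one. They are the longest run common to these 3 sequences with 1 varying position. They were picked after the sequences were seen, so they are a description with no test. They occur on either strand in 0.633% of 32851 RefSeq promoter windows of 300 bases (GRCm38.p6). Of the 33 members in that table, Cdh18 is the only other one with them, on the opposite strand. The windows of Pcdh9, Pcdh18 and Pcdh19 do not hold them.

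Delta-2 protocadherins such as Pcdh10 bind the WAVE actin regulator complex through their cytoplasmic tail. The promoter of Pcdh17, which acts at synapses, had values of 4.99 and 6.37 (mean 5.68 ± 0.977, SD, n = 2), higher than 89.5% of all promoters open in both replicates. Pcdh10, which acts in axon outgrowth and synapse elimination, had 4.51 and 5.62, and its window also held a start site of the long noncoding gene 2610316D01Rik. Pcdh8, which encodes the activity-induced protein arcadlin, had 4.15 and 5.18. Both replicates gave this order, although the ranges of the 3 promoters across replicates overlapped one another. These ranges include the unknown scaling between the libraries, so their overlap does not measure the uncertainty of the order. Pcdh19, linked to epilepsy and lying on X, was lower at 1.28 and 1.91, and Pcdh18 was lowest of the 5 at 0.771 and 1.22.

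Among delta-1 protocadherins, Pcdh9 had 4.41 and 5.30, and its second group of start sites, 4.46 kb downstream, was open as well at 1.82 and 2.12. Pcdh1, on chromosome 18, had 3.38 and 3.70 and shared its window with 2010320O07Rik. Pcdh7 (1.41 and 1.88) and Pcdh20 (1.46 and 1.49) lay below both in each replicate, with no overlap. Pcdh11x, a delta-1 gene whose symbol the naming rule does not take, had 0.728 and 0.921. Of the remaining protocadherins, Pcdh12, known from endothelium, had no promoter peak, with a cut rate stretch at a false discovery rate of 0.0302 in replicate 1 alone. Pcdh15 had 1.87 and 1.38 and is described with its start sites.

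**Figure D1:**
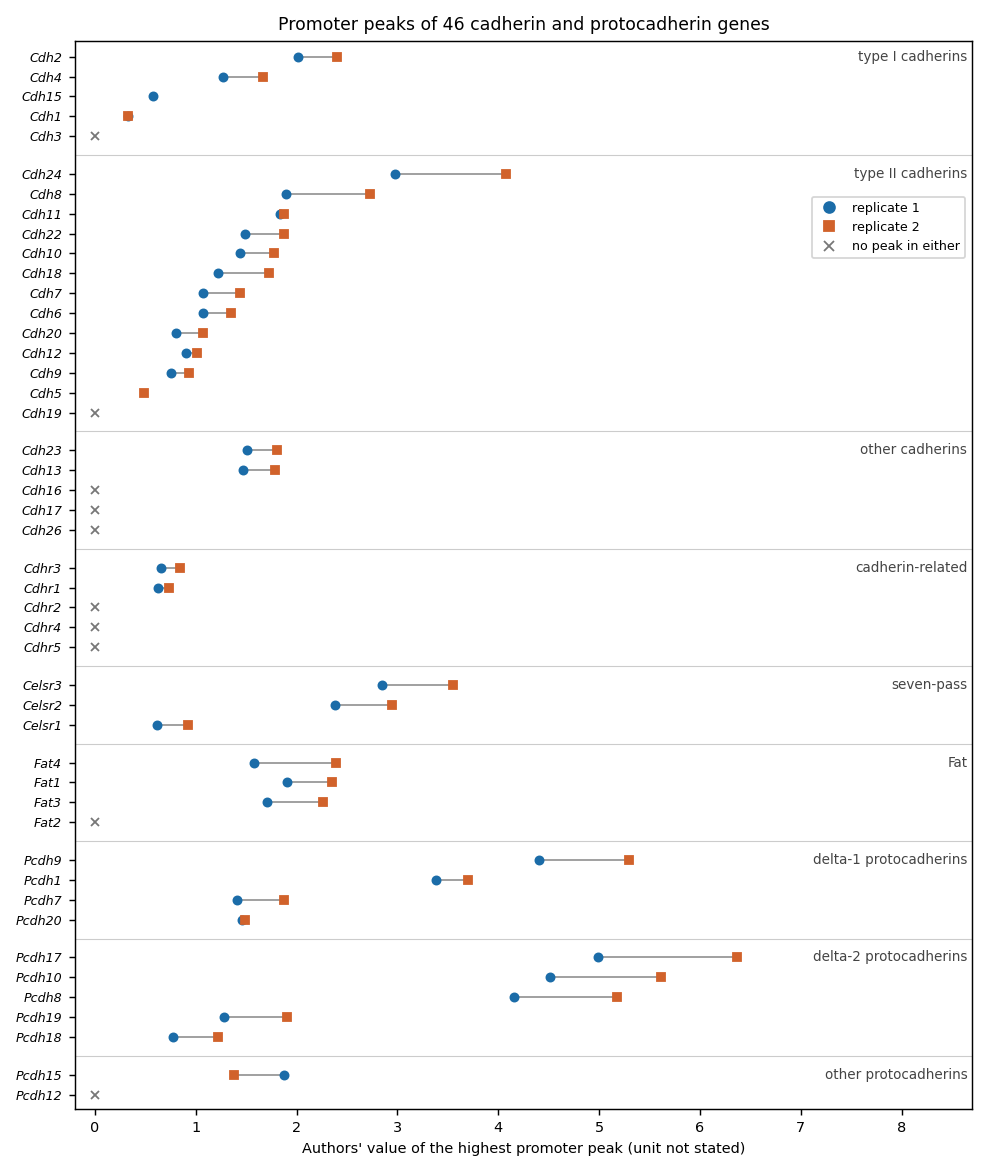
Authors' value of the highest promoter peak (x axis, unit not stated) for each of the 46 members, grouped by subfamily. Circles are replicate 1, squares are replicate 2, crosses are genes with no promoter peak in either. Pcdh17, Pcdh10, Pcdh9 and Pcdh8 lie above 4 in both replicates, and no other member does.

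Type I cadherins were open at 3 of 5. Cdh2, the N-cadherin of neural junctions and synapses, had 2.02 and 2.41, and Cdh4, the R-cadherin of retina and brain, had 1.27 and 1.66. Cdh1, the E-cadherin of epithelia, had 0.325 and 0.326, the lowest of all 34 open members. Its highest peaks in the replicates did not overlap and neither was in the shorter list. Cdh15, the M-cadherin of muscle, had a peak of 0.580 in replicate 1 alone, with a cut rate stretch at a false discovery rate of 0.0330 in replicate 2, and Cdh3, the P-cadherin of epithelia, had none.

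Type II cadherins were open at 11 of 13. Cdh24 was highest at 2.98 and 4.08, in a window shared with the start of Gm17606. Cdh8, expressed in subsets of forebrain neurons, had 1.90 and 2.72, and Cdh11 had 1.84 and 1.88. Cdh22, Cdh10, Cdh18, Cdh7, Cdh6, Cdh20, Cdh12 and Cdh9 had means between 0.843 (Cdh9) and 1.68 (Cdh22). Cdh9 acts at mossy fibre synapses on CA3 neurons, and its values of 0.757 and 0.929 placed it above only 10.1% of all open promoters. Cdh5, the VE-cadherin of endothelium, had a single peak of 0.489 in replicate 2, at a start site 9.68 kb inside the gene. Cdh19, known from Schwann cells, had none.

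Among the other cadherins, Cdh23 had 1.51 and 1.81 and Cdh13, the lipid-anchored T-cadherin, had 1.46 and 1.79. Cdh16 of kidney, Cdh17 of intestine and Cdh26 had none. In the cadherin-related group, Cdhr1, known from photoreceptors, had 0.629 and 0.734, and Cdhr3, known from ciliated airway cells, had 0.658 and 0.840. Cdhr2 and Cdhr5 of the intestinal brush border and Cdhr4 had none. At these 10 closed members, no stretch of cut rate under a false discovery rate of 0.05 was listed within the promoter in either replicate, except at Pcdh12 as given above.

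Celsr3, needed for axon tract formation, had 2.85 and 3.55, with peaks centred at -1089 and -1219 bp from the start (upstream), near starts of Gm37714 and Gm35025. Celsr2 had 2.38 and 2.94. Celsr1, known from neural tube closure and ependymal cilia, was lowest at 0.615 and 0.921, and only its peak in replicate 2 was in the shorter list. Fat1 (1.90 and 2.35), Fat3 (1.70 and 2.26) and Fat4 (1.58 and 2.39) overlapped one another, and their order differed between the replicates. Fat2, known from cerebellar granule cells, had no promoter peak.

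Replicate 2 had the higher value at 33 of the 34 open members, with Pcdh15 the exception, and at 13037 of the 14116 genes open in both. The median ratio of replicate 2 to replicate 1 was 1.25 for the members and 1.25 for all genes. Spearman's rho between replicates was 0.948 across the 34 open members and 0.980 across the 14116 genes, which share 1 library each and are not independent replicates. The open members had a median promoter value of 1.63, the mean of both replicates, against 2.87 for all open genes. The highest peaks of the replicates lay at different places at Cdh1, Cdh2, Cdh23, Cdhr3, Celsr2, Pcdh7 and Pcdh15.

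Openness of the members followed the CpG content of their promoters, as it did across all genes. The ratio of observed to expected CpG was taken in 1000 bp around each start site, and the highest per gene was used. Above a ratio of 0.6, 25 of 25 members were open in both replicates, against 95% of all genes. Between 0.4 and 0.6, 8 of 10 were open, against 72.7%, with Cdh3 (0.522) and Cdhr4 (0.455) the closed ones. Below 0.4, Cdhr3 alone of 11 was open, against 13.8%. The median ratio was 0.713 in the 34 open members and 0.223 in the 10 closed ones. Length gave a related split, with 12 of 12 members over 200 kb open (92.3% of all such genes), 14 of 18 between 50 and 200 kb (85.1%) and 8 of 16 under 50 kb (57.8%).

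**Figure D2:**
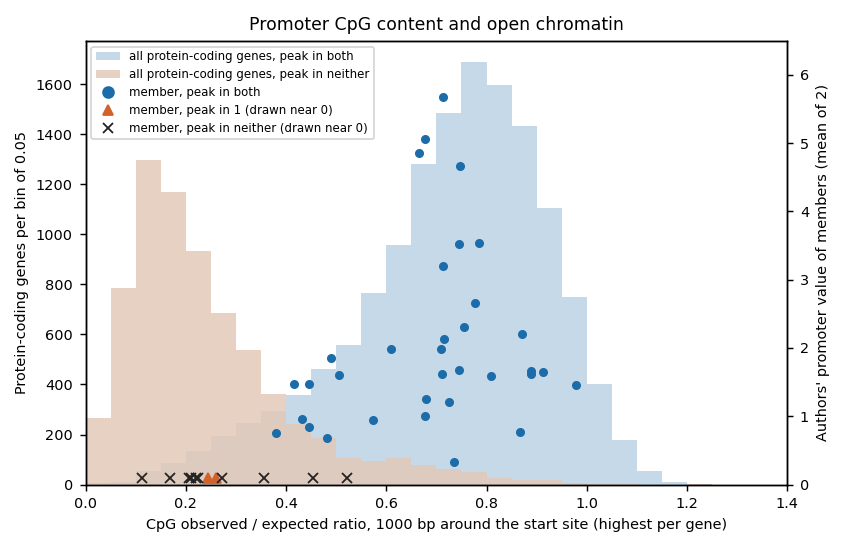
Promoter CpG observed to expected ratio (x axis) of all protein-coding genes with a peak in both replicates or in neither (bars, left axis, genes per bin of 0.05) and of the 46 members (symbols, right axis, mean promoter value of 2 replicates). Members with a peak in 1 replicate (triangles) or neither (crosses) are drawn near 0. All 25 members above a ratio of 0.6 are open in both replicates.

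Many members have several widely spaced start sites, and the open one was not always the first. Start sites within 2000 bp were joined, giving 111 groups in the 46 genes, of which 48 were open in both replicates. Of the 33 members with more than 1 group, 26 were open in both replicates at 1 or more, and 11 of the 46 were open at more than 1. The first group was open in both replicates in 32 of the 46 members, and in 24 of the 33 with more than 1 group. No share over all genes stands beside these counts, so whether the members differ from other genes in this is not known.

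In Cdh18, a type II cadherin of 925 kb, the first start site had a peak of 0.247 in replicate 1 alone. Its open start sites lay 487 kb downstream, with 1.22 and 1.73. In Cdh12, of 1140 kb, a noncoding start had 0.757 and 0.938 and the coding start 661 kb downstream had 0.905 and 1.01. In these long genes the highest value stood at an internal start site.

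Pcdh15 and Cdh23 form the tip links of inner ear hair cells. Pcdh15 spans 1550 kb, and its first starts, which belong to noncoding transcripts, had 1.87 and 1.38. Its coding start 723 kb downstream had 0.891 and 0.840. Replicate 1 was higher at both places. Cdh23 had 9 groups, of which 4 were open in both, including the first (1.16 and 1.81) and a noncoding start 391 kb downstream (1.51 and 1.59). Celsr3 was open at 3 of its 4 groups, and Celsr2 at its coding start (2.06 and 2.94) and at a noncoding start 13.0 kb inside (2.38 and 2.63). Cdhr3 was closed at its coding start and open at noncoding starts 31.1 kb (0.651 and 0.840) and 39.9 kb (0.658 and 0.571) inside the gene.

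Outside promoters, Cdh13, Cdh4 and Pcdh9 carried the most open sites, while Cdh12 and Cdh18 carried few for their length. Peaks were counted in the gene body and 10 kb on each side, outside every promoter, and called shared where peaks of the replicates overlapped by at least 1 bp. Members held 400 such peaks in replicate 1, of which 248 (62%) were shared, and 327 in replicate 2, of which 74.3% were shared. Over all genes the shares were 59.8% and 74.2%. At least 1 shared peak was found at 39 of 46 members, against 53.5% of all genes. By length, these were 11 of 16 under 50 kb (44.8% of all such genes), 16 of 18 from 50 to 200 kb (79.6%) and 12 of 12 over 200 kb (96.4%). The 7 members with none were Cdh24, Cdh26, Cdh9, Cdhr1, Cdhr4, Cdhr5 and Celsr3.

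The median member had 4 shared peaks, against 1 over all genes, and members were longer, with a median of 92.3 kb against 17.4 kb. Within length classes the medians were 10.5 against 7 over 200 kb, 3.5 against 2 from 50 to 200 kb and 1.5 against 0 under 50 kb. Members were still longer within each class. In the same order, median lengths were 524 against 327 kb, 111 against 84.5 kb and 19.96 against 11.3 kb. Comparisons by length class therefore do not fully match the members to other genes for length. Per 100 kb of the span counted, members had a median of 2.41 against 1.13 over all genes. By length, this was 1.96 against 1.84 over 200 kb, 2.90 against 1.86 from 50 to 200 kb and 3.73 against 0 under 50 kb.

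Cdh13 had the most, 31 shared peaks over 1041 kb, with a median value of 0.636 and 0.693 and the highest at 2.23 and 1.92. Cdh4 had 20, with a highest peak of 1.78 and 1.61 in intron 2, and Pcdh9 had 17, with a highest peak of 2.19 and 2.32 in intron 4, 676 kb from the start. This Pcdh9 peak held 1 footprint in each replicate and 0 shared ones, and whether it lies in repeated sequence was not tested. No shared peak of Pcdh9 outside promoters lay within 177 kb of its 5′ end. Fat3 had 14 (highest 1.46 and 2.16, in the first intron), and Pcdh15 had 14, with medians of 0.364 and 0.440 and the highest at 1.00 and 1.21. Cdh22 and Cdh23 had 12 each, with highest peaks of 1.05 and 1.42 in a coding exon and 1.35 and 1.55 in intron 27. Pcdh1, Pcdh7 and Pcdh17 had 9 each, with highest peaks of 1.73 and 2.09, 2.02 and 3.00, and 1.90 and 2.24.

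For their length class, several protocadherins had many shared peaks per 100 kb. Pcdh1 had 19.5 shared peaks per 100 kb, Pcdh8 had 16.3 and Pcdh20 had 15.0, each above at least 98.7% of genes under 50 kb. These rest on 9, 4 and 4 shared peaks, at genes of 26.1, 4.54 and 6.65 kb counted with 10 kb on each side. Those of Pcdh1 had low median values of 0.382 and 0.367, and 4 of the 9 were in the shorter list of replicate 1. Celsr2 had 13.4 per 100 kb, above 98.3% of that class. Pcdh10 (10.4), Cdh22 (8.37) and Pcdh17 (7.80) were above 99.4%, 98.2% and 97.5% of genes from 50 to 200 kb. Shared peaks were counted on replicate 1, and several could meet the same peak of replicate 2. Pcdh10 had 8 shared peaks but 6 peaks outside promoters in replicate 2, and Pcdh17 had 9 and 8. At Pcdh17, several met the peak chr14:84445001-84446360 of replicate 2 and lay within 1 kb of a RefSeq transcript start. At the other end, Cdh18 had 2 shared peaks (0.212 per 100 kb) and Cdh12 had 3 (0.259 per 100 kb), above 4.61% and 5.31% of genes over 200 kb. Those of Cdh12 were low, between 0.467 and 0.608 in replicate 1 and between 0.302 and 0.473 in replicate 2. Those of Cdh18 had 0.460 and 0.522 at one place and 0.276 and 0.294 at the other. Cdh2 had 4, at 1.66 per 100 kb, and its highest was 0.537 and 0.872, below the 2.02 and 2.41 of its promoter.

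**Figure D3:**
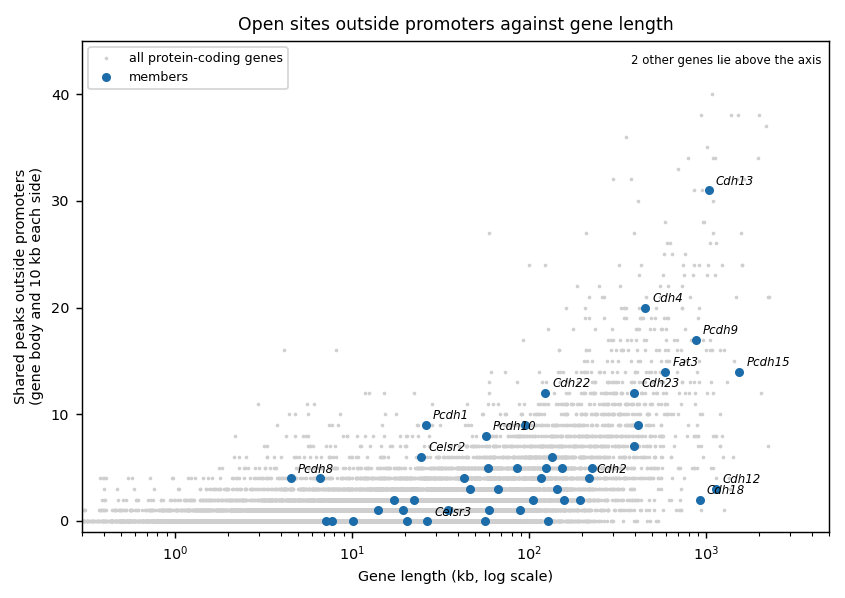
Shared peaks outside promoters (y axis) against gene length in kb (x axis, log scale) for all protein-coding genes (grey) and the 46 members (blue), with 2 other genes above the axis. Cdh13 has 31 at 1041 kb, while Cdh12 and Cdh18 have 3 and 2 at similar lengths.

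Of the 248 shared peaks, 17.7% lay in a first intron and 54.0% in another intron, against 17.1% and 43.0% of those of all genes. The downstream flank held 6.05%, against 14.6%. The 207 peaks inside gene bodies lay a median of 120 kb from the 5′ end, with 45 within 10 kb, 87 beyond 200 kb and the farthest 1169 kb away, in Pcdh15. Their values were modest, with medians of 0.643 and 0.701 over the 248, against 0.757 and 0.815 over all genes, and rho between replicates was 0.898. A RefSeq transcript start lay within 1 kb of 25 of the 248, and 5 lay inside another protein-coding gene.

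**Figure D4:**
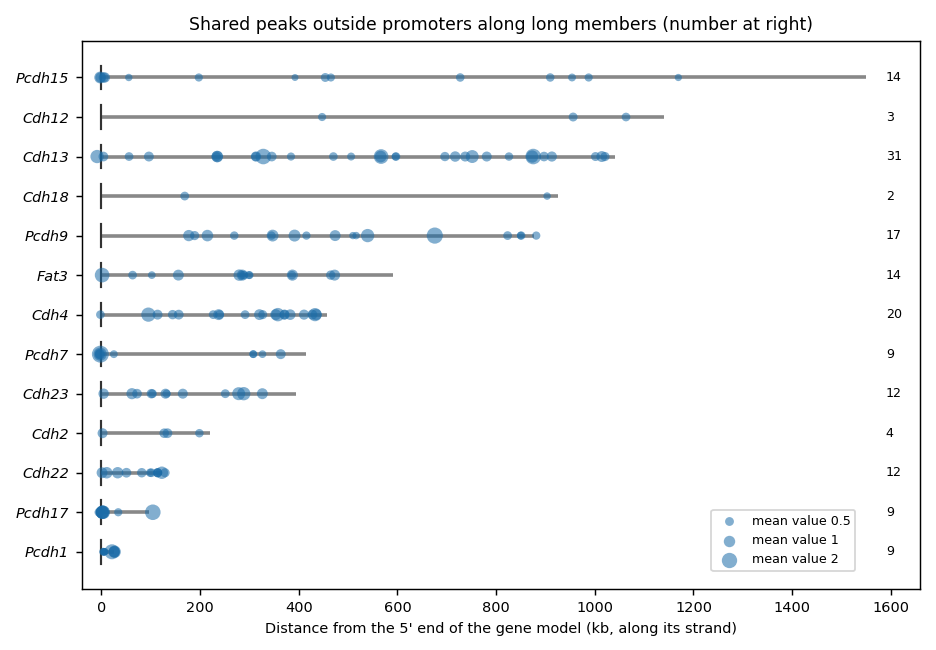
Positions of shared peaks outside promoters (circles, area growing with the mean value of 2 replicates) in kb from the 5′ end of the gene model (x axis), for the 10 members with 9 or more and for Cdh12, Cdh18 and Cdh2. Grey bars are gene lengths and the number of peaks is at the right. In Pcdh9 no circle lies within 177 kb of the start. In Pcdh17 and Pcdh7 several lie near it, and those of Pcdh1 lie between 3.55 and 26.7 kb downstream of it.

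The 8 highest shared peaks outside promoters belonged to 8 members, and 3 of them held the letters of the CTCF site in a shared footprint. CTCF is the zinc finger protein of chromatin loop anchors and insulators, and its consensus of 12 letters was searched on both strands. These 3 peaks, a Cdh16 peak with E-box letters and a high intronic Cdh13 peak are printed on the strand of the gene. Bases in shared footprints are in capitals. Letters of a searched motif lie inside those footprints, as they also do at the Fat1 peak named below, which is not printed. Each run is the stretch covered by the peaks of both replicates.
Celsr2, chr3:108389341-108389520, minus strand: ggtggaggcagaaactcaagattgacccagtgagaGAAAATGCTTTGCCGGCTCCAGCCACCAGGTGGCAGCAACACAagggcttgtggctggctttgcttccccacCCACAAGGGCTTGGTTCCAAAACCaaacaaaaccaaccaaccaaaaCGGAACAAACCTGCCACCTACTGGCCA
Cdh10, chr15:18821481-18821660, plus strand: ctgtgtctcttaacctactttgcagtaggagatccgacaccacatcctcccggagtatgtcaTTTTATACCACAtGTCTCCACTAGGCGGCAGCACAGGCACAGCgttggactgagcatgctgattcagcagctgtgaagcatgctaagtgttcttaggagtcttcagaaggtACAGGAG
Cdh5, chr8:104146401-104146600, plus strand: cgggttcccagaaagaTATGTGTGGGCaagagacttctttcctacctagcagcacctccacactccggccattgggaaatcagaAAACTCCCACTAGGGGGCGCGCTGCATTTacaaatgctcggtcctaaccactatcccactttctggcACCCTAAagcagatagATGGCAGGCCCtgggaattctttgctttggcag
Cdh16, chr8:104602781-104602980, minus strand: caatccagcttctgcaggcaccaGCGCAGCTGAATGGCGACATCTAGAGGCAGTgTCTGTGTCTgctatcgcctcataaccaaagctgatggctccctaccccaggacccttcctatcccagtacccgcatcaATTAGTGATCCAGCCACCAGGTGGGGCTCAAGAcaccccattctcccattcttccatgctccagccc
Cdh13, chr8:118611661-118611880, plus strand: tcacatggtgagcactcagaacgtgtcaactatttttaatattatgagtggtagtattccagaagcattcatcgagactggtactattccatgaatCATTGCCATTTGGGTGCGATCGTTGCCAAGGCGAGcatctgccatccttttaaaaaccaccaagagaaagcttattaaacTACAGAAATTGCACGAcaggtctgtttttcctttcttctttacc

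The Celsr2 peak was the highest of all 248, with 5.35 and 6.00, and lay in the downstream flank, 3.35 kb from a start of Psrc1. Its sequence holds CCACCAGGTGGC at bases 58 to 69 and GCCACCTACTGG at bases 166 to 177, which matches on the other strand. The Cdh10 peak, in the first intron 2.61 kb from the 5′ end, had 4.16 and 4.09 and holds CCACTAGGCGGC at bases 80 to 91. The Cdh5 peak, in the downstream flank, had 2.02 and 2.80 and holds CCACTAGGGGGC at bases 91 to 102. A shared peak outside promoters stood above the gene's own promoter value in both replicates at 9 of the 34 open members, namely Cdh1, Cdh10, Cdh13, Cdhr3, Celsr1, Celsr2, Fat1, Fat4 and Pcdh7. The share over all genes was not counted, so this is not shown to be a trait of the members. At Fat4 the values in replicate 2 were close, at 2.397 against 2.389. The peaks of Fat1, Fat4 and Pcdh7 lay within 1 kb of a RefSeq transcript start, as given below.

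Cdh16, closed at its promoter, had a peak of 2.20 and 2.41 in intron 17 with the E-box letters CAGCTG, which basic helix-loop-helix factors bind, at bases 27 to 32. The Cdh13 peak in intron 2, 328 kb from the 5′ end, had 1.76 and 2.39. It holds the letters TGAATCA at bases 92 to 98, partly within a shared footprint. They matched an AP-1 search that allowed any base at the central position, so they are not shown to be an AP-1 site. The peak also holds the NFI letters GCCAA at bases 121 to 125, wholly within a shared footprint. The other 4 of the 8 highest were a first intron peak of Fat1 (2.86 and 3.94) and upstream peaks of Pcdh10 (2.39 and 2.63), Pcdh7 (2.02 and 3.00) and Fat4 (2.27 and 2.40). That of Fat1 held the SP and KLF letters GGGCGG in a shared footprint. Those of Fat1, Pcdh7 and Fat4 lay 0.155, 0.324 and 0.216 kb from a RefSeq transcript start and so fall within 1 kb of a start in that annotation.

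Footprints were fewer per peak at the members than over all genes. Member promoter peaks held 155 shared footprints in 123 shared peaks, or 1.26 per peak against 2.03 for all genes. Outside promoters there were 190 in 248 peaks, or 0.766 per peak against 0.992, and 115 of the 248 peaks held at least 1. Of the footprints of replicate 1 in these peaks, 40.7% at member promoters and 38.9% outside them met a footprint of replicate 2, against 55.6% and 42.4% over all genes. The members' peak values were also lower than those of all genes, as given above, and the part of this in the footprint counts was not tested.

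CTCF letters were in 6.84% of the members' shared footprints outside promoters, against 11.3% over all genes, and in 10 members: Cdh4, Cdh5, Cdh10, Cdh13, Cdh23, Cdhr2, Celsr1, Celsr2, Fat2 and Pcdh15. Windows of 240 bases centred on the shared peaks held them in 7.26% of the members' peaks and 14.6% of all genes' peaks. The E-box letters CAGATG, as bound by neuronal helix-loop-helix factors, were in 8.42% of footprints against 5.14%, and in 33.1% of windows against 28.7%. CAGCTG was in 5.79% of footprints against 3.56%, but in 18.95% of windows against 23.6%, so footprints and windows differed in direction. The NFI letters TTGGC were in 11.1% of footprints against 10.1%, but in 46.8% of windows against 49.4%, again with the opposite direction. At promoters, the SP and KLF letters GGGCGG were in 10.3% of the members' footprints against 18.2% over all genes, and TTGGC in 8.39% against 6.48%. The 240 bases before the 5′ end of the gene held GGGCGG in 37.0% of members and 38.7% of all genes, and TTGGC in 54.3% and 42.3%. These shares rest on 16 member footprints or fewer for each of CTCF, both E-boxes and GGGCGG, and each motif was searched on both strands.

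Partners of the cadherins were open at 18 of 19 promoters (94.7%), against 64.3% of all genes and 95% of genes with a CpG ratio above 0.6. The median ratio of the partners was 0.828, and 15 of them were open in both replicates in the shorter list. A promoter peak in both replicates was found at 7 of 7 catenins, 2 of 3 Fat and Dachsous partners and 9 of 9 planar polarity partners of Celsr. Ctnnb1, the beta-catenin that binds classical cadherins, had 4.45 and 5.34. Ctnna3, an alpha-catenin, had 10.6 and 13.4, above every cadherin promoter. Ctnna2, the neuronal alpha-catenin, had 3.73 and 4.74, and Ctnna2 and Ctnna3, at 1098 and 1574 kb, each had 27 shared peaks outside promoters. Dchs2 was the exception, with a promoter peak of 0.636 in replicate 2 alone.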

How the data were processed

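Per the deposited file descriptions, every file came from an alignment of 1 library to mm10 and replicates were not pooled before calling. The aligner, peak caller and read depth were not given in the sources used here. The authors deposited a signal value per peak, without stated unit, and p-value files holding false discovery rates, under 0.05 for stretches of cut rate and 0.01 for every footprint. All signal values were whole multiples of 1 step per library (100% within 0.05 of a step). Values were used only to describe and rank peaks, and their ratio between replicates carries an unknown scaling. In each longer list 3.23% and 3.35% of peaks overlapped another peak of the same list and were counted as deposited.

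Start sites came from the full GENCODE M21 annotation (GRCm38.p6) and sequence from the same build. Every overlap used at least 1 bp. Shared peaks were counted on replicate 1. Motif letters were searched in shared footprints with 5 bp added on each side. With 1 group, no test between groups was made. Counting used Python 3.11.15 and numpy 2.4.6 and was tested on simulated data.

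The members, gene lists and motifs were chosen with earlier results of these data known. Named with values were members with a promoter peak in 1 replicate, the 3 highest of each subfamily, the 8 members with most shared peaks outside promoters (10 with ties), the 8 highest such peaks, and members over 200 kb with fewest. Genes and sequences named beyond that were chosen after their values were seen.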

Additional observations from a re-analysis of the deposited data

How the results depend on the processing

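The count of 34 members with a promoter peak in both replicates stayed between 32 and 35 under all alternatives run. Cdh1 and Celsr1 left it under the shorter peak list, Cdh1 also with peaks at or above the median value, Cdhr3 under coding, basic or first start sites, and Cdh18 under first start sites. Members open in 1 replicate only went from 2 to 1 (shorter list), 0 (peaks at or above the median value of each list) and 1 (basic annotation). The 248 shared peaks outside promoters became 114 in the shorter list and 109 at or above the median value, and 327 to 400 when a single replicate was used. The median per member of 4 became 5 to 6 with a single replicate and 1 in both the shorter list and the peaks at or above the median value. It was 2 with promoters of 2500 bp and with an overlap of at least 50% of both peaks, 3 without flanks, and 6 with flanks of 50 kb. Merging overlapping peaks gave 3, as did leaving out RefSeq starts. The 344 shared footprints became 937 to 1041 with a single replicate, where no sharing was required. Of 82 values under alternatives, 64 stayed within 1.5 times the main count, or for the median within 1 SD. That SD, 0.707, was taken over the medians of replicate 1 alone and replicate 2 alone. Both are themselves among the alternatives, so it is a yardstick and not a spread of the median of shared peaks. Merging, the basic annotation and RefSeq starts were alternatives chosen after seeing the data. No paired analysis was possible because there was only 1 group. With 2 replicates and no stated read depth, a closed promoter is one where no peak was called at this depth.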
